A study of Zea mays with 48 samples.

Results

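The 100 maize genes described here had RNA levels that differed in one direction between reciprocal hybrids of the inbred lines B73 and Mo17 in all 8 kinds of seed sample measured. In 50 of them the level was higher in MB, the cross with Mo17 as seed parent and B73 as pollen parent, and in the other 50 it was higher in BM, the cross with B73 as seed parent. The genes were chosen from these same values. Read levels (CPM, a gene's reads scaled to the total reads counted in its library) were averaged over 3 libraries, d = log2((MB mean + 1)/(BM mean + 1)) was taken in each kind, and the genes with one sign of d throughout were ranked by their smallest absolute d. Of 39656 gene models, 530 had one sign of d in all 8 kinds, 325 higher in MB and 205 higher in BM, after 1 gene model was left out, and the first 100 were taken. The cross difference of these genes is therefore given as a description, with no test.

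The MB and BM groups each held endosperm at 5 days after pollination (DAP), embryos cut out by laser at 3 and 5 DAP, and embryos dissected by hand at 5, 7, 9, 11 and 13 DAP, with 3 libraries in each of the 16 groups and 48 libraries in all. The parents were inbreds grown at an experiment station and crossed by hand, both crosses carry one B73 and one Mo17 parent, and each replicate pooled material from at least 3 ears. The study's title names gene activation and imprinting in the early maize embryo as its subjects.

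A reciprocal cross swaps which line serves as mother and which as father, so both hybrids receive the same pair of nuclear genomes in the embryo but from opposite sides. The endosperm, the tissue that feeds the embryo, receives a larger share of its genome from the mother than from the father, and imprinted genes, which are read mainly or only from one parent's copy, are known in plants above all from endosperm. The counts used here are not split by parental allele, so they give the total RNA of each gene in each cross and not which copy was read.

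The 2 sets of genes had different courses in hand-dissected embryos. Of the 50 genes higher in MB, 39 rose and 2 fell at 13 DAP against 5 DAP. Of the 50 higher in BM, 2 rose and 33 fell in the same comparison. Of all genes tested 30.3% rose and 33% fell. The genes higher in MB included those annotated as gpn1, me4 and sut4, which make a glyceraldehyde-3-phosphate dehydrogenase, a malic enzyme and a sucrose transporter, and these rose at 13 DAP against 5 DAP by log2 fold changes of 3.13, 3.13 and 2.09. GRMZM5G871471 had the largest cross difference, with at most 1.41 CPM in any MB library and between 0.603 and 41.8 CPM in the BM libraries.

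Libraries held between 7130090 and 21698127 counted reads, and intervals from these counts would cover counting error only, since amplified reads are not independent molecules. Replicates correlated least in the 3 DAP laser embryos, with pairwise r between 0.881 and 0.973 across genes, and at 0.967 or above in the other groups. MB replicate 1 and BM replicate 3 of the 3 DAP laser embryos stood apart from their groups. Summed CPM of 8 matched transfer-layer gene models, which mark the endosperm cells next to the mother plant, averaged 188 in MB and 1690 in BM endosperm. In hand-dissected embryos that sum averaged 409 in MB and 2615 in BM at 5 DAP, 298 in MB and 993 in BM at 7 DAP, 550 in MB and 362 in BM at 9 DAP, 323 in MB and 365 in BM at 11 DAP, and 30.4 in MB and 241 in BM at 13 DAP. In laser embryos it averaged 104 in MB and 0.94 in BM at 3 DAP, and 17.7 in MB and 1.1 in BM at 5 DAP, with 1 and 4 of the 8 genes at 0 at 3 DAP in MB and BM. Summed CPM of 7 matched gene models of ovule and seed coat lay between 0.61 and 30.05 in every library. In 3 DAP laser embryos that sum was 23 to 30.05 in MB and 5.29 to 12.63 in BM. It was also higher in MB without overlap in 11 DAP embryos and in endosperm. At 13 DAP it was lower in MB, at 10.35 to 11.73 against 16.08 to 18.67 in BM, and the crosses overlapped in the other kinds. None of these marker genes was among the 100. In whole-tissue RNA, fewer cells of a type and less RNA per cell cannot be told apart.

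The cross differences of most of the 100 genes were small in at least 1 kind and larger in others. The smallest absolute d of the genes higher in MB ran up to 0.297 with a median of 0.149, and that of the genes higher in BM ran up to 1.76 with a median of 0.159. In 75 of the 100 genes it was under 0.2, and in 11 it was at least 0.3. The median absolute d of a gene over the 8 kinds had a median of 0.32 among the genes higher in MB and of 0.516 among the genes higher in BM. An absolute d under 1 in all 8 kinds was found in 30 genes higher in MB and 17 higher in BM, and the other 53 genes reached at least 1 in some kind. One sign in all 8 kinds occurred in 2.04% of the 24897 genes that reached a group mean of 1 CPM. At the end of the list stood GRMZM2G021909 with a smallest absolute d of 0.0939, AC215690.3_FG002 with 0.0928 and GRMZM2G569356 with 0.0927. The first genes outside it were GRMZM2G131152 with 0.0923, GRMZM2G006424 with 0.0922 and GRMZM2G527387 with 0.0921, so the boundary of the list falls within a continuous range.

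**Figure D1:**
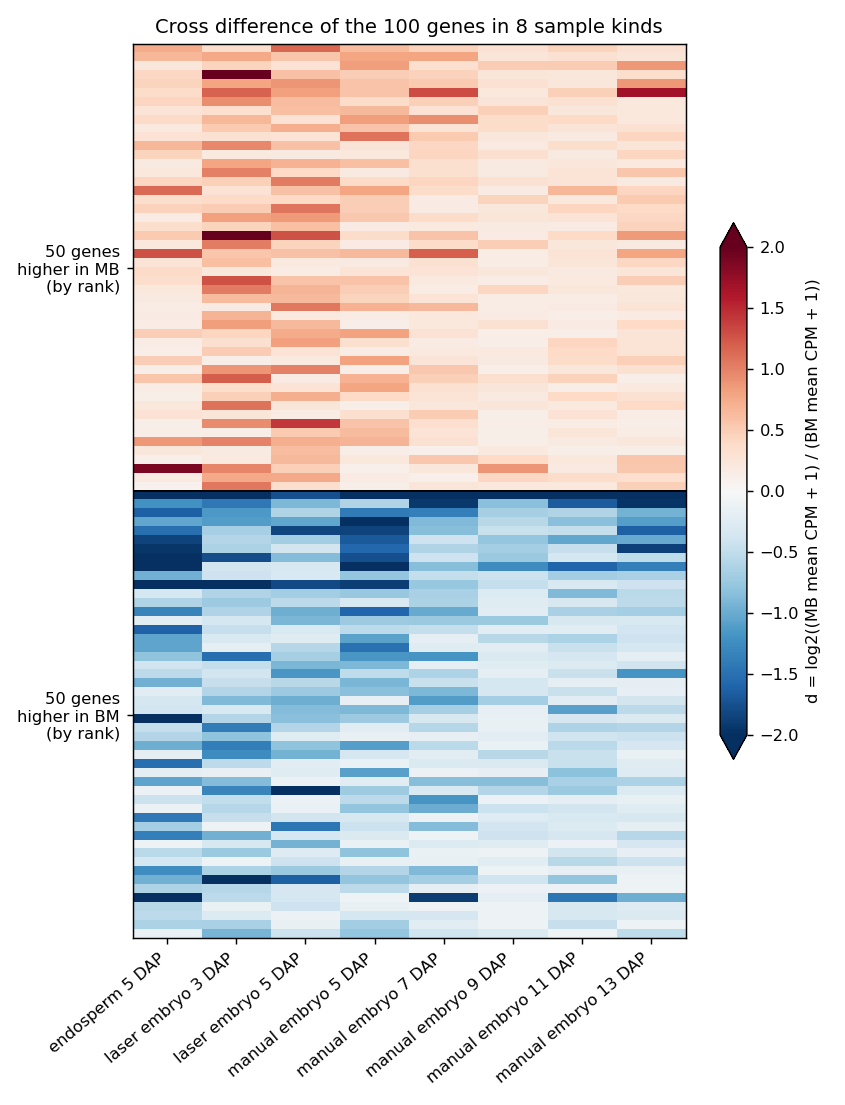
Cross difference d, the log2 ratio of MB mean CPM plus 1 to BM mean CPM plus 1, for each of the 100 genes (rows, in rank order within each set of 50) in the 8 kinds of sample (columns), with red for higher in MB and blue for higher in BM. Colours are palest at 9 DAP in hand-dissected embryos, where 32 of the 100 genes have their smallest absolute d.

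The size of the difference varied with the kind of sample. The 9 DAP embryos held the smallest absolute d of 32 genes, 16 from each set, and the largest of 0 genes. Among genes higher in MB the largest absolute d fell in 3 DAP laser embryos for 18 and in 5 DAP laser embryos for 15. Among genes higher in BM it fell in endosperm for 19. The median absolute d of the genes higher in MB was 0.281 in endosperm, 0.618 and 0.594 in laser embryos of 3 and 5 DAP, and 0.488, 0.314, 0.219, 0.228 and 0.3 in hand-dissected embryos of 5, 7, 9, 11 and 13 DAP. For the genes higher in BM it was 0.881 in endosperm, 0.59 and 0.593 in the laser embryos, and 0.745, 0.551, 0.287, 0.441 and 0.392 in the hand-dissected embryos. Over the 24897 genes the same medians were 0.185 in endosperm, 0.389 and 0.32 in the laser embryos, and 0.24, 0.176, 0.118, 0.201 and 0.208 in the hand-dissected embryos, so 9 DAP was also the kind with the smallest median among all genes. In endosperm 3 genes higher in MB and 21 genes higher in BM had an absolute d of at least 1.

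Libraries of the crosses often overlapped for a single gene in a single kind. The MB and BM libraries did not overlap in 1 kind for 8 genes, in 2 kinds for 16, in 3 for 19, in 4 for 20, in 5 for 17, in 6 for 12, in 7 for 7 and in all 8 kinds for 1 gene. Over the 24897 genes this held in at least 1 kind for 90.8%, in at least 2 kinds for 69.6%, in at least 3 for 42%, in at least 4 for 20.5%, in at least 5 for 7.43%, in at least 6 for 1.81%, in at least 7 for 0.261% and in all 8 for 0.0201%. These shares come from the contrast that chose the genes. The 3 DAP laser embryos were among the kinds with overlap for 11 of the 12 leading genes described next. The one direction often rested on a single library: in 56 of the 100 genes leaving out 1 library turned or removed the sign of d in that library's kind, in 38 of them in laser embryos and in 33 in other kinds. This held for 5 of the 12 leading genes.

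The first gene by rank was GRMZM5G871471, higher in BM. It has no matched name. In endosperm it had no read in the 3 MB libraries, against 41.8, 32.4 and 24 CPM in BM. No read was found in the 3 MB endosperm libraries, and the BM mean was at least 375-fold higher than 3 counts over that group would give. In hand-dissected embryos it had 0.433, 0 and 0.125 CPM in MB, against 19.8, 24.8 and 21 CPM in BM at 5 DAP. At 13 DAP it had no read in the 3 MB libraries, against 10.03, 11.2 and 11.5 CPM in BM, and the BM mean was at least 144-fold higher on the same basis. The crosses were apart at both ages, and the BM libraries were lower at 13 than at 5 DAP. The values at 7 DAP were 0.083, 0 and 1.34 CPM in MB, against 6.76, 5.49 and 5.28 CPM in BM. The values at 9 DAP were 0.442, 0.151 and 0.105 CPM in MB, against 3.39, 8.4 and 5.85 CPM in BM. At 11 DAP there were 0.206, 0.068 and 0 CPM in MB, against 14.1, 8.53 and 10.7 CPM in BM. Each of these ages kept every BM library above every MB library. In laser embryos of 3 DAP it had 0.078, 1.41 and 0.192 CPM in MB, against 1.89, 5.23 and 16.6 CPM in BM. In those of 5 DAP it had no read in the 3 MB libraries, against 0.603, 1.36 and 5.21 CPM in BM. The 3 DAP value of BM replicate 3, 16.6 CPM, came from one of the libraries that stood apart, and without it and MB replicate 1 the lowest BM value of 1.89 CPM still lay above the highest MB value of 1.41 CPM. The fitted change at 13 against 5 DAP was a log2 fold change of -1.06 ± 0.3 (SE), adjusted p = 0.0058 (edgeR quasi-likelihood test with Benjamini-Hochberg adjustment, here and below). The fit used both crosses, but with so few MB reads it rests mainly on the BM libraries for this gene. Set against 7 or 9 DAP, the change of this gene at 13 DAP was 0.29 or 0.52 and was not called, with adjusted p = 0.74 and 0.43.

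**Figure D2:**
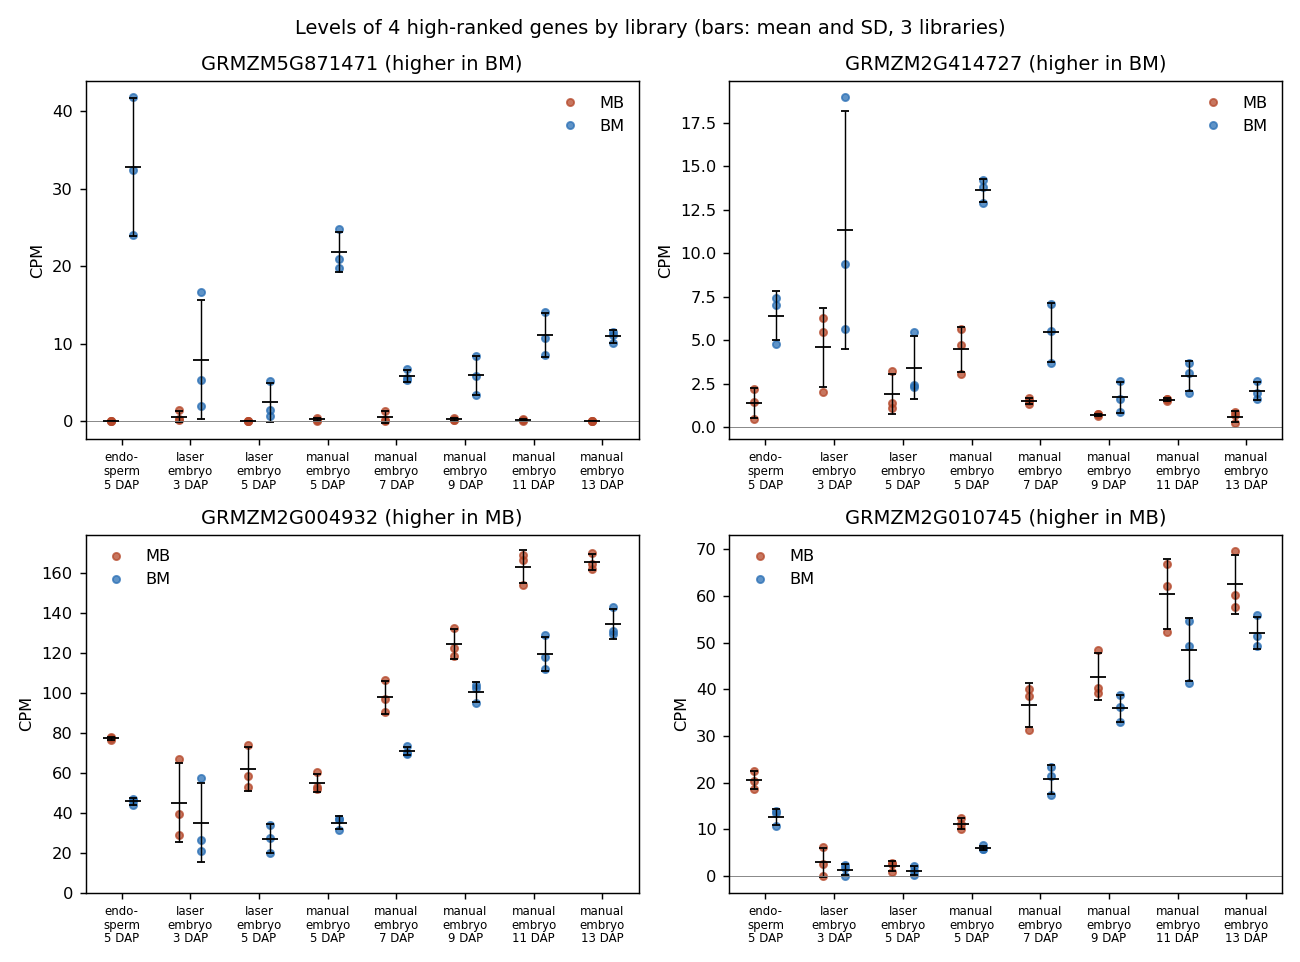
CPM of 4 high-ranked genes in every library, with endosperm and the 7 kinds of embryo along the x axis, MB left of BM in each kind, points for libraries and black bars for the mean and SD of 3 libraries. GRMZM5G871471 lies at or below 1.41 CPM in all MB libraries, and GRMZM2G004932 and GRMZM2G010745 lie higher at each later age of the hand-dissected embryos in the means of both crosses.

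GRMZM2G414727, the third gene by rank, was also higher in BM. Hand-dissected embryos of 5 DAP had 4.7, 3.07 and 5.63 CPM in MB, against 14.2, 13.8 and 12.9 CPM in BM, a ratio of means of 3.05 in favour of BM. Endosperm had 2.21, 1.47 and 0.483 CPM in MB, against 7.01, 7.4 and 4.8 CPM in BM. The crosses were apart in endosperm and in all 5 ages of hand-dissected embryo and overlapped in both kinds of laser embryo. At 13 DAP the hand-dissected embryos had 0.236, 0.72 and 0.849 CPM in MB, against 2.63, 1.61 and 1.98 CPM in BM. Every 13 DAP library lay below every 5 DAP library of its own cross, and the gene fell with a log2 fold change of -2.66 ± 0.24 (SE), adjusted p = 1.9e-07. Most of that drop lay before 9 DAP, since the change at 13 against 9 DAP was 0.09 and was not called (adjusted p = 0.87).

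GRMZM2G003909, second by rank and higher in BM, showed its widest gap in 13 DAP embryos, with 0, 0.216 and 0.154 CPM in MB, against 2.9, 3.92 and 3.32 CPM in BM. The ratio of the means there was 27.5 in favour of BM. At 5 DAP it had 8.09, 11.6 and 9.76 CPM in MB, against 15.6, 14.9 and 15.9 CPM in BM, a ratio of 1.57. At 7 DAP MB replicate 3 had 13.2 CPM and the other MB libraries had 2.48 and 2.08 CPM, against 29.6, 25.4 and 21.4 CPM in BM. In 5 DAP laser embryos BM replicate 1 held 22.5 CPM while the other BM libraries held 2.81 and 2.33 CPM, within the MB range of 1.95 to 8.22 CPM. Without BM replicate 1 the means there were 4.48 CPM in MB and 2.57 CPM in BM, so the direction of this gene in that kind rests on 1 library. The gene fell at 13 against 5 DAP with a log2 fold change of -3.15 ± 0.49 (SE), adjusted p = 0.00011.

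GRMZM2G010909 was higher in BM and highest in endosperm, with 17.2, 11.7 and 7.8 CPM in MB, against 23.7, 25.6 and 29.4 CPM in BM. In 5 DAP hand-dissected embryos it had 1.81, 1.5 and 2.19 CPM in MB, against 8.55, 12.7 and 9.48 CPM in BM. In 5 DAP laser embryos it had 3.15, 2.23 and 3.56 CPM in MB, against 8.36, 6.08 and 7.07 CPM in BM. The crosses did not overlap in these 3 kinds. Endosperm exceeded hand-dissected embryo of the same age with a log2 fold change of 2.34 ± 0.27 (SE), adjusted p = 3.1e-06.

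GRMZM2G130580 and GRMZM2G097929 complete the 6 highest-ranked genes higher in BM. GRMZM2G130580 had 2.21, 2.39 and 1.03 CPM in MB, against 8.28, 7.12 and 6.19 CPM in BM in endosperm, a ratio of 3.83 in favour of BM, and overlapped between crosses in 3 DAP laser embryos and in embryos of 9 and 11 DAP. Without BM replicate 1 of the 3 DAP laser embryos its means there were 0.54 CPM in MB and 0.291 CPM in BM, a turned direction. It rose in endosperm against hand-dissected embryo at 5 DAP with a log2 fold change of 1.77 ± 0.4 (SE), adjusted p = 0.0009. GRMZM2G097929 had 1.37, 1.5 and 1.94 CPM in MB, against 7.74, 7.81 and 6.45 CPM in BM in 5 DAP hand-dissected embryos. In 5 DAP laser embryos it had 0.093, 0 and 0 CPM in MB, against 0.603, 0.272 and 1.12 CPM in BM. Its laser libraries lay below all hand-dissected libraries of the same age and cross, and the change was a log2 fold change of -3.11 ± 0.47 (SE), adjusted p = 1.7e-05.

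Among the genes higher in MB the first by rank was GRMZM2G004932, which has no matched name. Hand-dissected embryos had 52.9, 60.4 and 51.9 CPM in MB, against 36.9, 31.6 and 37.2 CPM in BM at 5 DAP. They had 118, 133 and 123 CPM in MB, against 102.7, 104 and 94.9 CPM in BM at 9 DAP. They had 169.9, 165 and 162 CPM in MB, against 129.8, 131 and 143 CPM in BM at 13 DAP. At each of these ages all MB libraries were above all BM libraries, and each cross was higher at 13 than at 5 DAP without overlap. The cross ratio was 1.56 at 5 DAP and 1.23 at 13 DAP in favour of MB. The age change was a log2 fold change of 1.89 ± 0.07 (SE), adjusted p = 5.2e-12. In endosperm the gene had 77.5, 78.2 and 76.6 CPM in MB, against 46.1, 47.2 and 44.1 CPM in BM, with ranges well apart. In 3 DAP laser embryos it had 67.3, 39.4 and 29 CPM in MB, against 57.8, 26.4 and 21.1 CPM in BM, and the ranges overlapped there. Without MB replicate 1, one of the libraries that stood apart, the means were 34.2 CPM in MB and 35.1 CPM in BM, so the gene is not higher in MB in that kind without it.

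GRMZM2G010745, second among the genes higher in MB, followed a like course. At 13 DAP its embryos had 69.6, 60.2 and 57.6 CPM in MB, against 49.2, 51.3 and 55.9 CPM in BM, and at 5 DAP they had 12.4, 10.1 and 11.1 CPM in MB, against 5.91, 5.73 and 6.6 CPM in BM. It rose with a log2 fold change of 2.91 ± 0.1 (SE), adjusted p = 4.2e-12. Laser embryos of 5 DAP had 0.834, 2.66 and 2.83 CPM in MB, against 0.172, 2.09 and 1.12 CPM in BM, with overlap between crosses and every value below the hand-dissected embryos of that age.

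GRMZM2G358827 had its widest cross difference at 13 DAP, with 760.0, 729.9 and 726 CPM in MB, against 221, 225 and 244 CPM in BM. All MB libraries lay far above all BM libraries at that age. At 5 DAP it had 47.4, 43.3 and 43 CPM in MB, against 32.3, 27.9 and 29.2 CPM in BM. At 11 DAP it had 350.4, 295 and 328 CPM in MB, against 263, 303 and 132 CPM in BM, where BM replicate 2 lay within the MB range. The crosses also overlapped in laser embryos of 3 and 5 DAP, in endosperm and in embryos of 9 DAP, where d was 0.216. The change at 13 against 5 DAP was a log2 fold change of 3.64 ± 0.22 (SE), adjusted p = 5.5e-08, one of the 2 largest rises among the 100 genes under the naming rule.

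GRMZM2G092968 and GRMZM2G065230 ranked among the first 6 genes higher in MB on thinner evidence. GRMZM2G092968 had 246 reads in the 24 MB libraries and 76 in the 24 BM libraries, with 0.942, 1.37 and 0.772 CPM in MB, against 0, 0.323 and 0 CPM in BM at 13 DAP. Its MB libraries were all above its BM libraries at that age, while at 7 DAP its means without MB replicate 3 were 0.532 CPM in MB and 0.602 CPM in BM. GRMZM2G065230 had 374, 25.9 and 10.7 CPM in MB, against 3.85, 4.9 and 80.6 CPM in BM in 3 DAP laser embryos. Its high values there were MB replicate 1 and BM replicate 3, the libraries that stood apart, and without them the values were 25.9 and 10.7 CPM in MB against 3.85 and 4.9 CPM in BM. Without MB replicate 1 alone its means there were 18.3 CPM in MB and 29.8 CPM in BM. The crosses overlapped for this gene in 7 of the 8 kinds, and leaving out 1 MB library turned its direction in laser embryos of both ages and in hand-dissected embryos of 7, 9 and 13 DAP. It was one of the 2 genes higher in MB that fell at 13 against 5 DAP, with 0.236, 2.38 and 1.31 CPM in MB, against 0.697, 1.2 and 0.554 CPM in BM at 13 DAP and 16.2, 15.6 and 18 CPM in MB, against 12.9, 9.8 and 11.9 CPM in BM at 5 DAP. The change was a log2 fold change of -3.56 ± 0.32 (SE), adjusted p = 2.3e-07.

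Of the 100 genes, 62 matched an entry of the RefSeq gene table for Zm-B73-REFERENCE-NAM-5.0, 32 higher in MB and 30 higher in BM, against 64.7% of genes that reached 1 CPM. Only 7 of these carried a symbol other than a locus number. No positions are given, since the sources used here do not name the annotation behind the counts.

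GRMZM2G035268 matched gpn1, also listed as GAPN, the non-phosphorylating glyceraldehyde-3-phosphate dehydrogenase that turns a sugar phosphate of glycolysis directly into 3-phosphoglycerate while making NADPH. Embryos of 13 DAP had 154, 161 and 157 CPM in MB, against 87, 93.5 and 77.4 CPM in BM. Embryos of 5 DAP had 18, 19.6 and 16.8 CPM in MB, against 12.1, 12.1 and 11.6 CPM in BM. The crosses did not overlap at either age or at 7, 9 and 11 DAP, and each age's cross means were above those of the age before. It rose with a log2 fold change of 3.13 ± 0.09 (SE), adjusted p = 9.3e-13. Endosperm had 9.71, 11.3 and 7.73 CPM in MB, against 7.01, 6.49 and 6.89 CPM in BM, below the hand-dissected embryos of the same age in each cross. Laser embryos of 3 DAP had 0, 4.22 and 3.93 CPM in MB, against 2.2, 1.25 and 0 CPM in BM, where 1 library of each cross held no read.

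GRMZM2G118770 matched me4, a malic enzyme, which removes carbon dioxide from malate to give pyruvate. At 13 DAP it had 587, 559 and 595 CPM in MB, against 332, 329 and 346 CPM in BM. At 5 DAP it had 64.2, 75.2 and 69.8 CPM in MB, against 42.9, 40.6 and 48.3 CPM in BM. The MB libraries lay above the BM libraries at both ages. The means in MB were 69.7, 105, 224, 385 and 580 CPM at 5, 7, 9, 11 and 13 DAP, and in BM they were 43.9, 45.2, 201, 318 and 336 CPM. Both crosses were thus highest at 13 DAP, and the rise over 5 DAP was a log2 fold change of 3.13 ± 0.08 (SE), adjusted p = 1.1e-13. At 9 DAP the BM library with 227 CPM lay within the MB range of 210.5 to 233 CPM. In endosperm it had 35.2, 25.4 and 17.9 CPM in MB, against 10.5, 8.59 and 11.7 CPM in BM, below hand-dissected embryos of the same age with a log2 fold change of -1.31 ± 0.17 (SE), adjusted p = 9e-06.

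GRMZM2G307561 matched sut4, a sucrose transporter, a protein that carries sucrose across membranes. At 13 DAP it had 46, 37.1 and 41.8 CPM in MB, against 28.3, 29.1 and 34.4 CPM in BM, and at 5 DAP it had 10.3, 8.62 and 10.9 CPM in MB, against 8.96, 8.89 and 7.54 CPM in BM. The crosses were apart at 13 DAP and overlapped at 5 DAP. The age change was a log2 fold change of 2.09 ± 0.11 (SE), adjusted p = 3.5e-10. Laser embryos of 5 DAP had 0.185, 0.343 and 0.274 CPM in MB, against 0.172, 0.091 and 0.093 CPM in BM, and those of 3 DAP had 0, 0.248 and 0.192 CPM in MB, against no read in the 3 BM libraries. These are a few reads per library, far below the hand-dissected embryos, and the change at 5 DAP was a log2 fold change of -4.8 ± 0.3 (SE), adjusted p = 7e-10. In endosperm it had 24.8, 22.7 and 19.5 CPM in MB, against 16.1, 15.1 and 17.1 CPM in BM, above hand-dissected embryos of the same age.

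**Figure D3:**
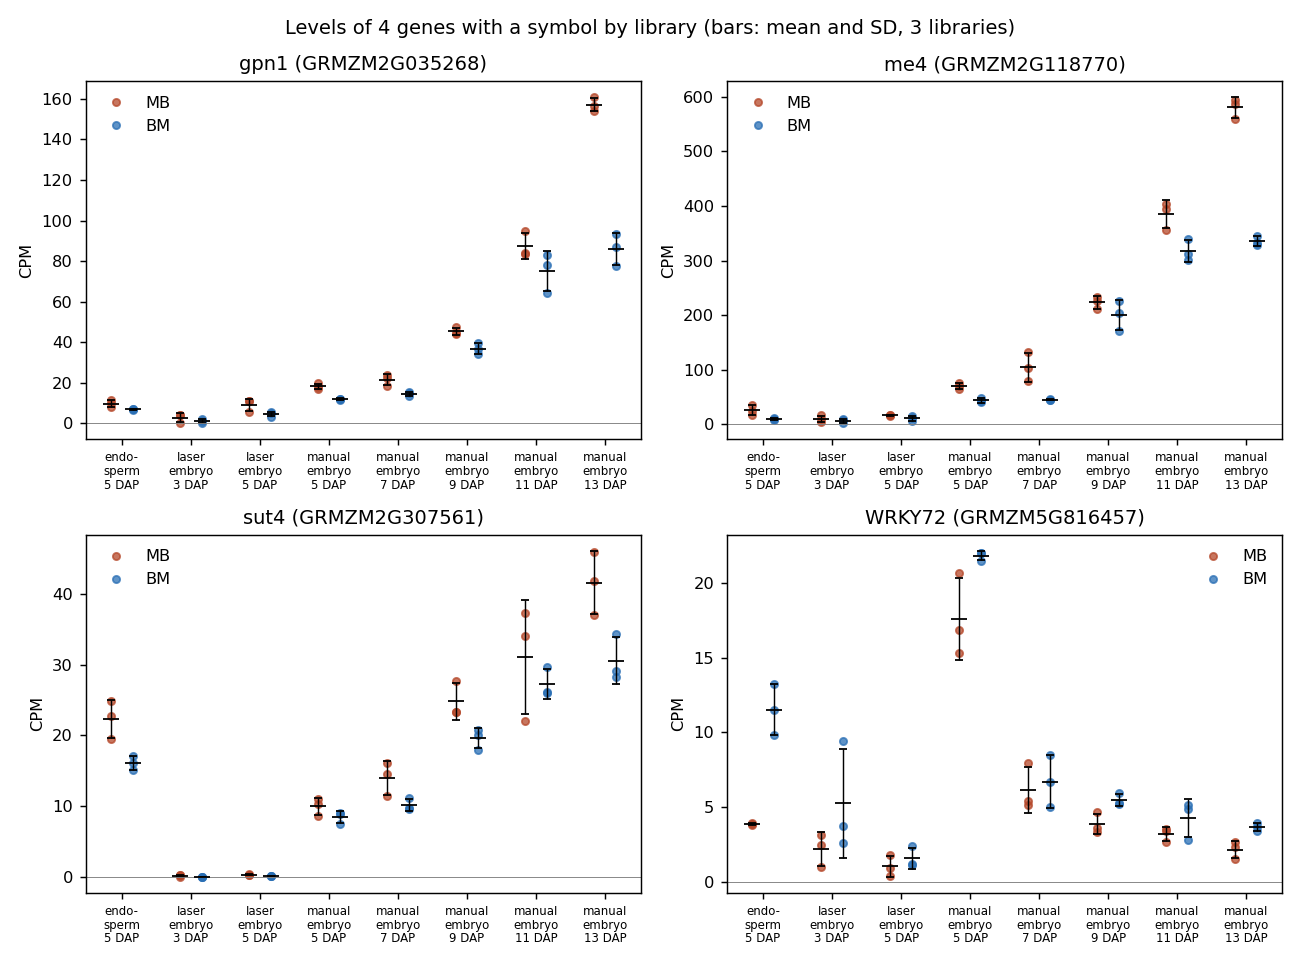
CPM of the genes matched to gpn1, me4, sut4 and WRKY72 in every library, with endosperm and the 7 kinds of embryo along the x axis, MB left of BM in each kind, points for libraries and black bars for the mean and SD of 3 libraries. gpn1, me4 and sut4 are highest at 13 DAP in MB, and WRKY72 is highest in 5 DAP hand-dissected embryos of both crosses.

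GRMZM5G816457 matched WRKY72, a member of the WRKY family of plant transcription factors, and was higher in BM. At 5 DAP it had 15.3, 20.7 and 16.9 CPM in MB, against 21.5, 22 and 22.1 CPM in BM in hand-dissected embryos. At 13 DAP it had 1.49, 2.3 and 2.62 CPM in MB, against 3.92, 3.36 and 3.64 CPM in BM. Both crosses were lower at 13 DAP without overlap, and the fall was a log2 fold change of -2.66 ± 0.15 (SE), adjusted p = 7.5e-10. Endosperm held its widest cross gap, with 3.86, 3.96 and 3.8 CPM in MB, against 9.82, 13.2 and 11.5 CPM in BM. Its smallest absolute d, 0.107 at 7 DAP, came from 5.37, 5.17 and 7.94 CPM in MB, against 6.64, 8.49 and 4.99 CPM in BM, which overlapped.

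GRMZM2G165998 matched a pair of RefSeq entries, one of them a heat stress transcription factor symbol, Hsf01, so its name is uncertain. It had 200.2, 205 and 222 CPM in MB, against 157, 158 and 162 CPM in BM at 13 DAP and 111, 129 and 109 CPM in MB, against 78.1, 91.9 and 77.7 CPM in BM at 5 DAP. The crosses were apart at both ages, and it rose with a log2 fold change of 1.03 ± 0.07 (SE), adjusted p = 5.5e-09. GRMZM2G137724, listed only as a deaminase, was higher in MB. Its means lay between 18.5 and 29.7 CPM in MB and between 13.0 and 24.3 CPM in BM over the 8 kinds. At 5 DAP its endosperm and its laser libraries lay above its hand-dissected libraries in each cross. The log2 fold changes, with TMM factors, were 1.11 ± 0.09 (SE), adjusted p = 1.9e-08, in endosperm. In laser embryos they were 1.22 ± 0.13 (SE), adjusted p = 2.5e-07. The gene rose slightly at 13 against 5 DAP, with a log2 fold change of 0.29 ± 0.1 (SE), adjusted p = 0.022. That change turned to -0.14 at 13 against 7 DAP, where it was not called (adjusted p = 0.15). GRMZM2G005552, listed as zmCL2-1, was higher in BM, with 2.6, 2.62 and 2.38 CPM in MB, against 4.55, 5.9 and 6.6 CPM in BM at 5 DAP in hand-dissected embryos. It had 1.26, 1.3 and 1.39 CPM in MB, against 1.34, 2.21 and 1.27 CPM in BM at 13 DAP, where the crosses overlapped, and fell with a log2 fold change of -1.27 ± 0.25 (SE), adjusted p = 0.00048.

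Age in hand-dissected embryos was tested at 13 against 5 DAP over both crosses, with cross as an additive term. The contrast compared ages and not crosses, but the cross difference still bears on which genes were tested. Of the genes higher in BM 47 were tested over both crosses and 33 in MB libraries alone. Some thus passed the filter on low counts only through BM libraries. For genes with few MB reads the fitted change rests mainly on BM. Of the 50 genes higher in MB, all tested, 39 rose and 2 fell, and of the 50 genes higher in BM 2 rose and 33 fell while 3 were not tested. Over the 23141 genes tested 63.3% were called, 30.3% rose and 33% fell. The median of log2((CPM + 1) at 13 DAP/(CPM + 1) at 5 DAP) was 0.47 over the 50 genes higher in MB and -0.95 over the 50 genes higher in BM, against -0.14 over the 24897 genes that reached 1 CPM. Among the 5 ages the highest mean fell at 13 DAP for 30 of the 50 genes higher in MB, or 60%, against 15.1% of the 24897 genes. It fell at 5 DAP for 34 of the 50 genes higher in BM, or 68%, against 40.2% of the 24897. The mean was higher at every step of age for 15 genes higher in MB and 0 higher in BM, against 4.96% of all genes. It was lower at every step for 1 gene higher in MB and 9 higher in BM, against 7.9% of all genes.

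**Figure D4:**
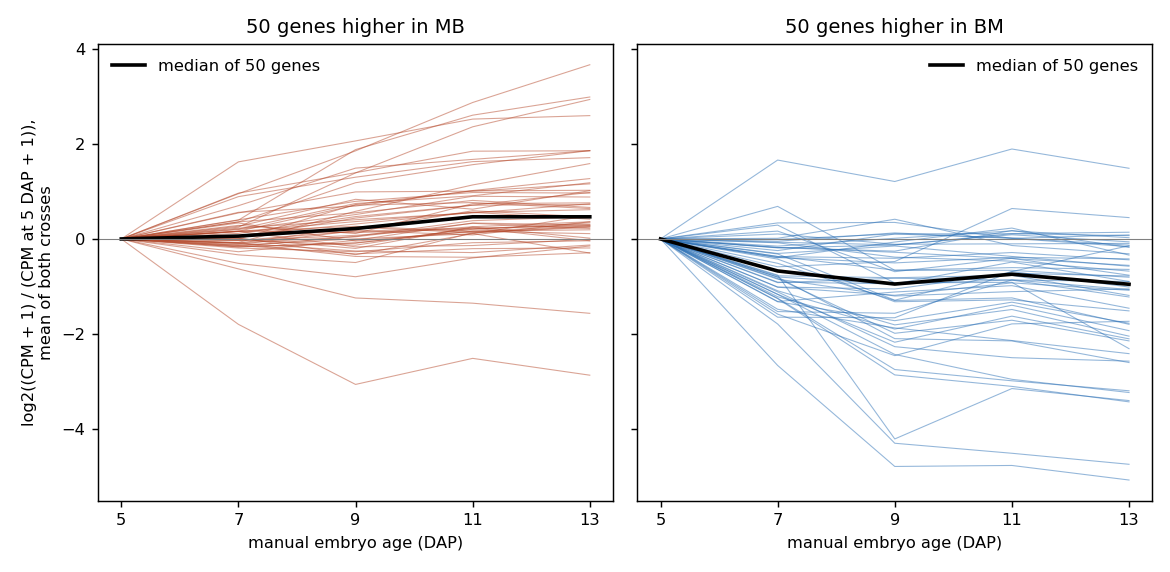
Course of each gene over the 5 ages of hand-dissected embryo, as log2 of the mean CPM plus 1 of both crosses relative to 5 DAP, for the 50 genes higher in MB (left) and the 50 higher in BM (right), with thin lines for genes and a black line for the median. The median line ends at 0.47 on the left and at -0.95 on the right, and on the right most of the drop lies before 9 DAP.

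Each cross was also fitted alone. In MB libraries alone 50 genes higher in MB and 33 higher in BM were tested, since genes with too few reads were left out. Of these 37 higher in MB rose and 2 fell, and 4 higher in BM rose and 20 fell. Over all genes tested there 31.1% rose and 33.7% fell. In BM libraries alone 47 genes higher in MB and 46 higher in BM were tested. Of these 32 higher in MB rose and 2 fell, and 1 higher in BM rose and 33 fell, against 28.1% and 29% of all genes. Set against 9 DAP, 13 DAP was tested for 50 genes higher in MB and 34 higher in BM. At adjusted p under 0.05, 28 higher in MB rose and 0 fell, and 4 higher in BM rose and 5 fell. Over all genes 14.2% rose and 12.9% fell. The median of log2(CPM + 1) relative to 5 DAP over the 50 genes higher in BM was -0.67, -0.95, -0.74 and -0.95 at 7, 9, 11 and 13 DAP. The summed transfer-layer markers were also lower at 13 DAP, averaging 30.4 CPM in MB and 241 CPM in BM at 13 DAP against 409 CPM in MB and 2615 CPM in BM at 5 DAP, but in MB that sum was higher at 9 DAP, at 550 CPM, than at 5 DAP. Summed markers of the embryo-surrounding region, the endosperm next to the embryo (3 gene models), averaged 12.2 CPM in MB and 385 CPM in BM at 13 DAP against 1734 CPM in MB and 9384 CPM in BM at 5 DAP. Other endosperm lists moved the other way. Summed storage markers (8 gene models) averaged 303 CPM in MB and 1195 CPM in BM at 13 DAP against 95.3 CPM in MB and 94.5 CPM in BM at 5 DAP, and summed aleurone markers (5 gene models) averaged 293 CPM in MB and 346 CPM in BM at 13 DAP against 244 CPM in MB and 238 CPM in BM at 5 DAP. The part of these endosperm markers' tissue in the gene counts was not tested.

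The largest rises at 13 against 5 DAP under the naming rule were those of GRMZM2G015933 and GRMZM2G358827. GRMZM2G015933, higher in MB, had 1.57, 1.73 and 1.31 CPM in MB, against 0.912, 0.876 and 0.475 CPM in BM at 13 DAP and 0.289, 0 and 0 CPM in MB, against 0, 0 and 0.078 CPM in BM at 5 DAP. The 5 DAP libraries held reads in 1 of 3 libraries of each cross, and the change was a log2 fold change of 4.27 ± 0.65 (SE), adjusted p = 4.2e-05. Its mean deposited FPKM was 0.006 where its mean CPM was 0.774, so the deposited values disagree on the level of this gene. The largest falls were those of GRMZM2G075499 and GRMZM2G118345, both higher in BM. GRMZM2G075499 had 0.079, 0.072 and 0 CPM in MB, against 0.483, 0.23 and 0 CPM in BM at 13 DAP and 33.3, 20.01 and 28.5 CPM in MB, against 46.4, 46.9 and 50.3 CPM in BM at 5 DAP. It fell with a log2 fold change of -7.69 ± 0.3 (SE), adjusted p = 3.4e-11, and the crosses overlapped at 13 DAP.

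GRMZM2G118345 and GRMZM2G441347 are next to each other in the order of the RefSeq table, the one pair among the 100 with at most 5 genes between them, and both were higher in BM. Their courses with age were opposite. GRMZM2G118345 had 0.079, 0.072 and 0 CPM in MB, against 0.161, 0.277 and 0.158 CPM in BM at 13 DAP and 11.2, 6.74 and 10.1 CPM in MB, against 14, 11.5 and 13.1 CPM in BM at 5 DAP, and fell with a log2 fold change of -6.21 ± 0.29 (SE), adjusted p = 1.3e-10. GRMZM2G441347 had 6.52, 13.5 and 8.19 CPM in MB, against 14.8, 13.6 and 8.78 CPM in BM at 13 DAP and 4.12, 1.12 and 3.75 CPM in MB, against 3.8, 2.41 and 4.27 CPM in BM at 5 DAP, and rose with a log2 fold change of 1.87 ± 0.28 (SE), adjusted p = 4.3e-05. GRMZM2G441347 was one of the 2 genes higher in BM that rose. The other, GRMZM2G137174, rose with a log2 fold change of 0.98 ± 0.33 (SE), adjusted p = 0.016, and GRMZM2G409893, the other gene higher in MB that fell, did so with a log2 fold change of -1.48 ± 0.11 (SE), adjusted p = 1.7e-08. Both were named after their values were seen.

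In laser embryos 17 of the 89 genes tested were called between 3 and 5 DAP, most of them genes higher in BM that fell. At 5 against 3 DAP 3 genes higher in MB rose and 1 fell, and 1 gene higher in BM rose and 12 fell, with 45 and 44 genes tested in the sets higher in MB and BM. Over the 20168 genes tested 9.88% were called, 2.85% rose and 7.04% fell. Without MB replicate 2 of the 5 DAP laser embryos 5 genes higher in BM fell and 1 higher in MB rose. Without MB replicate 3 of that age 6 genes higher in BM fell. Over all genes 836 of 20954 and 903 of 21021 fell in these 2 fits. Without BM replicate 3 of that age 1 gene higher in MB rose, and over all genes 283 of 21054 rose. Without MB replicate 1 of the 3 DAP laser embryos 2 of 46 genes higher in MB fell, and over all genes 1424 of 20885 fell. In MB and BM libraries alone 3 and 2 genes higher in BM fell, of 32 and 44 tested. Over all genes 384 of 18895 and 369 of 18332 fell in these fits, so fewer genes were called there altogether. Scaled by library totals without TMM factors, the scaling of the CPM values, 3 genes higher in MB rose and 1 fell, and 1 gene higher in BM rose and 10 fell, against 4.16% and 5.18% of all genes. On simulated counts at this spread the test found 52 of 100 genes changed 4-fold and 3 of 100 changed 2-fold. Only these genes, among 20168, were changed there, and no cross difference was set. In the data 1993 genes were called, so the shares found can differ from those of the simulation. The 4 called genes higher in MB were GRMZM2G456473, GRMZM2G029566 and AC149818.2_FG006, which rose, and GRMZM2G174596, which fell, the last 3 named after their values were seen.

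GRMZM2G456473, higher in MB, had 2.04, 1.72 and 1.46 CPM in MB, against 1.29, 0.726 and 1.77 CPM in BM in laser embryos of 5 DAP. At 3 DAP it had 0, 0.745 and 0.096 CPM in MB, against no read in the 3 BM libraries. It rose with a log2 fold change of 3.67 ± 1 (SE), adjusted p = 0.032, and lost the call in 9 of the 12 fits that left out 1 library, with a log2 fold change between 3.4 and 5.59. GRMZM2G177812 was the 1 gene higher in BM that rose, with 120.3, 111 and 153 CPM in MB, against 211, 258 and 166 CPM in BM at 5 DAP. At 3 DAP it had 34.3, 37.2 and 15.2 CPM in MB, against 16.3, 46.2 and 69 CPM in BM. Each cross was higher at 5 DAP without overlap, with a log2 fold change of 2.02 ± 0.34 (SE), adjusted p = 0.0027. The lowest fold changes were those of GRMZM2G417287 and GRMZM2G569356, both higher in BM.

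GRMZM2G417287 had no read in the 3 MB libraries, against 0.172, 0.635 and 0.186 CPM in BM in laser embryos of 5 DAP and 0.313, 7.95 and 5.65 CPM in MB, against 9.66, 3.74 and 2.1 CPM in BM at 3 DAP. The ages did not overlap within either cross, and it fell with a log2 fold change of -5.28 ± 1 (SE), adjusted p = 0.0055. Its cross direction was fragile. Leaving out 1 library turned it in 3 DAP laser embryos and in hand-dissected embryos of 5, 7, 9 and 13 DAP. GRMZM2G569356, the last gene of the list, had 1.02, 0.086 and 0.457 CPM in MB, against 0, 1.27 and 1.86 CPM in BM at 5 DAP and 21.6, 14.2 and 14 CPM in MB, against 40.2, 10.6 and 46.9 CPM in BM at 3 DAP. It fell with a log2 fold change of -5.14 ± 0.72 (SE), adjusted p = 0.00094. In hand-dissected embryos of 11 DAP, where its absolute d was smallest, it had 0.137, 0.54 and 0.69 CPM in MB, against 0.228, 0.853 and 0.576 CPM in BM, with overlap. Leaving out BM replicate 2 or MB replicate 1 of that age turned its cross direction there.

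Endosperm was compared with hand-dissected embryos of the same age, 5 DAP, over both crosses. Of the genes higher in MB 17 were higher and 22 lower in endosperm, and of the genes higher in BM 26 were higher and 14 lower, with 49 and 48 genes tested. Over the 23153 genes tested 79.9% were called, 37.7% higher and 42.2% lower. These splits depended on the scaling. The fits used TMM factors, which correct library totals for a few very abundant genes. With library totals alone, the scaling of the CPM values given here, 10 genes higher in MB were higher and 30 lower in endosperm, and 18 genes higher in BM were higher and 19 lower, against 27.1% and 54.8% of all genes. The median log2 fold change over all genes tested was -0.08 with TMM factors and -0.51 with library totals. That median was -0.03 and -0.16 in the comparison of 13 with 5 DAP, where 36 genes higher in MB rose, 2 fell, 2 genes higher in BM rose and 33 fell with library totals, against 23.9% and 39% of all genes.

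**Figure D5:**
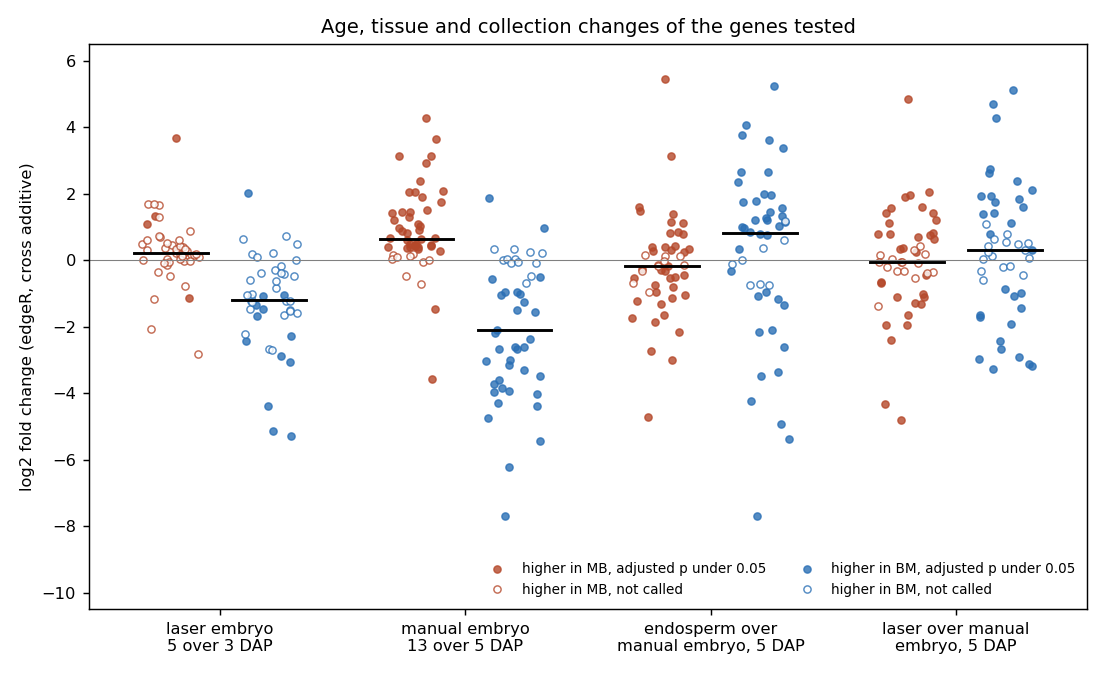
Log2 fold changes of the genes tested in 4 comparisons along the x axis, from edgeR fits over both crosses with cross as an additive term and TMM factors, with genes higher in MB left of genes higher in BM, filled points for adjusted p under 0.05 and black lines for medians. In hand-dissected embryos most filled points of the genes higher in MB lie above 0 and most of those higher in BM lie below it.

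The genes with the highest fold changes in endosperm were GRMZM2G015933 and GRMZM2G069694. GRMZM2G015933 had 3.97, 5.16 and 3.66 CPM in MB, against 0.14, 0.639 and 0.523 CPM in BM in endosperm, with the crosses apart, and a log2 fold change of 5.46 ± 0.66 (SE), adjusted p = 2.2e-06 over hand-dissected embryo. GRMZM2G069694, higher in BM, had 23.5, 10.4 and 9.11 CPM in MB, against 41.7, 30.8 and 33.2 CPM in BM in endosperm. In hand-dissected embryos of 5 DAP it had 0.433, 0.375 and 0.626 CPM in MB, against 1.56, 0.831 and 1.24 CPM in BM. The tissues and the crosses were apart, and the change was a log2 fold change of 5.24 ± 0.27 (SE), adjusted p = 2.7e-10. At 13 DAP no read of GRMZM2G069694 was found in MB embryos and BM embryos had 0, 0.092 and 0.237 CPM. Transfer-layer marker sums in endosperm also differed between the crosses, at 188 CPM in MB and 1690 CPM in BM, and their part in these values was not tested.

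The lowest fold changes in endosperm were those of GRMZM2G075499 and GRMZM2G177812, both higher in BM. GRMZM2G075499 had 0.11, 0.092 and 0.069 CPM in MB, against 0.281, 0 and 0.262 CPM in BM in endosperm, against the hand-dissected levels of 20.01 to 50.3 CPM, and a log2 fold change of -7.69 ± 0.26 (SE), adjusted p = 2.4e-12. GRMZM2G177812 had 3.53, 2.3 and 4.97 CPM in MB, against 4.35, 4.2 and 4.45 CPM in BM in endosperm. In 5 DAP hand-dissected embryos it had 159, 176 and 169 CPM in MB, against 290.1, 321 and 288 CPM in BM. The crosses were apart in embryos and overlapped in endosperm, and the change was a log2 fold change of -5.39 ± 0.17 (SE), adjusted p = 4.9e-12. GRMZM2G177812 was also lower at 13 DAP, with 5.1, 6.91 and 9.73 CPM in MB, against 9.92, 6.78 and 8.15 CPM in BM and a log2 fold change of -4.74 ± 0.2 (SE), adjusted p = 6.4e-10 against 5 DAP.

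Collection was compared at 5 DAP, laser against hand-dissected embryos, over both crosses. Of the genes higher in MB 19 were higher and 14 lower in laser embryos, and of the genes higher in BM 17 were higher and 14 lower, against 35.4% and 41% of the 22660 genes tested, or 76.4% called either way. With library totals in place of TMM factors 10 genes higher in MB were higher and 29 lower, and 13 genes higher in BM were higher and 19 lower, against 20.8% and 57.3% of all genes. The median log2 fold change over all genes was -0.15 with TMM factors and -0.90 with library totals, so directions of small changes in this comparison rest on the scaling. GRMZM2G177812 changed by 0.32 with TMM factors and by -0.45 with library totals, and GRMZM2G004932 by 0.65 and -0.1.

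The highest fold changes in laser embryos were those of GRMZM2G418343 and GRMZM2G030444. GRMZM2G418343, higher in BM, had 41.4, 18.6 and 23.3 CPM in MB, against 92.3, 85.8 and 88.1 CPM in BM in laser embryos of 5 DAP. Hand-dissected embryos of that age had 1.73, 1.12 and 2.13 CPM in MB, against 3.46, 2.08 and 5.28 CPM in BM. The crosses were apart in laser embryos and overlapped in hand-dissected ones, and the change was a log2 fold change of 5.13 ± 0.29 (SE), adjusted p = 4e-10. At 3 DAP laser embryos had 65.6, 20.6 and 34.7 CPM in MB, against 172, 188 and 223 CPM in BM, the highest levels of this gene. GRMZM2G030444, higher in MB, had 10.01, 3.77 and 4.39 CPM in MB, against 0.431, 3.54 and 1.77 CPM in BM in laser embryos and 0.722, 0 and 0.438 CPM in MB, against 0.068, 0.083 and 0.078 CPM in BM in hand-dissected embryos of 5 DAP. It was higher in laser embryos with a log2 fold change of 4.86 ± 0.66 (SE), adjusted p = 5.2e-06.

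The lowest were those of sut4 (GRMZM2G307561), given above, and GRMZM5G852329. GRMZM5G852329, higher in MB, had 1.67, 0.601 and 1.28 CPM in MB, against 0.517, 0.817 and 0.093 CPM in BM in laser embryos, with overlap between crosses. Hand-dissected embryos had 34.8, 31.8 and 31.7 CPM in MB, against 22, 17.1 and 25.9 CPM in BM, with the crosses apart. The change was a log2 fold change of -4.32 ± 0.31 (SE), adjusted p = 3.6e-09, with every laser library below every hand-dissected library. Summed transfer-layer markers were also lower in laser embryos, at 17.7 CPM in MB and 1.1 CPM in BM. In hand-dissected embryos they were at 409 CPM in MB and 2615 CPM in BM. Summed markers of the embryo-surrounding region (3 gene models) averaged 12569 CPM in MB and 5014 CPM in BM in laser embryos. In hand-dissected embryos they averaged 1734 CPM in MB and 9384 CPM in BM. That sum was thus higher in laser embryos in MB and lower in BM. Summed embryo markers (8 gene models) were 802 CPM in MB and 1452 CPM in BM in laser embryos, against 386 CPM in MB and 219 CPM in BM in hand-dissected embryos. The part of these tissue differences in the changes was not tested.

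Per length, the genes higher in MB had a median mean level of 14.2 FPKM (the authors' deposited values, which are scaled to transcript length and sequencing depth) over the 48 libraries, with a range of 0.006 to 231 FPKM. The genes higher in BM had a median of 2.81 FPKM, with a range of 0.057 to 73.7 FPKM. By the deposited FPKM 80 of the 100 genes had one direction in all 8 kinds. With pseudocounts of 0.1 CPM in place of 1, the first 100 genes held 30 higher in MB and 70 higher in BM, and with 5 CPM they held 69 higher in MB and 31 higher in BM. Ranked by FPKM they held 66 higher in MB and 34 higher in BM. With RLE scaling they held 40 higher in MB and 60 higher in BM, and with TMM scaling 48 and 52. The even split of the list thus rests on the pseudocount, the unit and the scaling. Of the 100 genes 6 had fewer than 100 reads over the 24 libraries of their lower cross, and the fewest were 18.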

How the data were processed

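RNA was measured by sequencing in 48 libraries, 3 in each of 16 groups. The submitters' processing notes name FastQC, TopHat, HTSeq and Cufflinks 2.2.1. Genome build, annotation and strand setting were not stated in the labels or headers, and overlapping, antisense and near-identical genes may share reads. The authors deposited raw read counts per gene and FPKM values, per the file headers. Groups came from the labels, which call the replicates biological, and each p-value measures the spread between these pooled samples.

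CPM was computed from the counts and library totals. The 100 genes were ranked on MB against BM values with a pseudocount of 1 CPM, and these genes, the marker lists and the tests were chosen with earlier results of these data known. Age, tissue and collection were tested with the edgeR 4.0.16 quasi-likelihood test in R 4.3.3 (12 libraries each, cross as an additive term, filterByExpr, TMM, robust fit), with p-values adjusted by the Benjamini-Hochberg method over all genes tested and a threshold of 0.05. A gene is said to rise or fall only past that threshold. Each SE is approximate: the absolute log2 fold change divided by the square root of the test's F statistic. Endosperm transfer layer, embryo-surrounding region, ovule and seed coat, embryo, storage, aleurone, imprinted, heat shock and clock markers were matched by symbol.

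Genes were named by a fixed rule: the 6 highest ranked in each direction, those with a symbol, in each comparison the 2 highest and 2 lowest fold changes of at least 1 on the log2 scale with adjusted p under 0.05 and no overlap within the cross where the gene is higher, the genes at the list's end, and neighbours. Alternatives were other pseudocounts (0.1 and 5 CPM), TMM and RLE scaling, FPKM, medians, filters, DESeq2 1.42.0, a replicate block and leaving out each library. Fits of one cross alone, 13 against 7 and 9 DAP, and library totals without TMM were added after seeing the data. The fits were tested on simulated counts. No sequences are shown, since none of these genes has one in the sources used here.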

Additional observations from a re-analysis of the deposited data

Results flagged for a closer look

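GRMZM2G010909 had laser and hand-dissected values of 5 DAP in opposite order in the crosses when scaled by library totals, as CPM is, but not with TMM factors. In MB the laser libraries had 3.15, 2.23 and 3.56 CPM, against 1.81, 1.5 and 2.19 CPM in hand-dissected embryos, a log2 change of 0.49 on the CPM plus 1 scale. In BM the laser libraries had 8.36, 6.08 and 7.07 CPM, against 8.55, 12.7 and 9.48 CPM in hand-dissected embryos, a log2 change of -0.46. Every laser library lay above the hand-dissected ones in MB and below them in BM, and the changes differed by 0.95. With TMM factors the log2 fold change (edgeR quasi-likelihood test with Benjamini-Hochberg adjustment) was 1.4 in MB libraries alone, adjusted p = 0.0063, and 0.27 in BM libraries alone, adjusted p = 0.37, so the opposite directions rest on the scaling. The difference between the crosses was not tested.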

How the results depend on the processing

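Of the first 100 genes, 57 were kept with a pseudocount of 0.1 CPM, 69 with 5 CPM, 62 with FPKM and 48 with medians of 3 libraries, and between 78 and 96 when 1 library was left out, with 43 to 57 higher in MB. With TMM scaling 73 were kept and with RLE scaling 69. Those higher in MB numbered 30 with a pseudocount of 0.1 CPM, 69 with 5 CPM, 66 with FPKM, 48 with TMM and 40 with RLE. Without both 3 DAP laser libraries that stood apart 82 were kept. One sign of d in all 8 kinds was kept by 96 of the 100 with TMM scaling, 93 with RLE scaling, 80 with FPKM, 77 with medians of 3 libraries, 88 without both libraries that stood apart, and 83 to 100 when 1 library was left out, lowest without BM replicate 3 of the 3 DAP laser embryos. TMM and RLE moved the median d over all genes most in laser embryos of 5 DAP, by -0.115 and -0.131.

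At 5 against 3 DAP in laser embryos MB libraries alone gave 4 of the 100 called (0 higher in MB that rose, 0 that fell, 3 higher in BM that fell) and BM libraries alone gave 2 (0, 0 and 2, with 0 higher in BM that rose), where fewer samples enter. Of the 100 genes 77 and 85 were tested in these fits. DESeq2 gave 2 higher in MB that fell, and leaving out both outlying libraries gave 2 higher in BM that rose. All genes called numbered 3454 by DESeq2, 3024 without both libraries, 641 in MB and 481 in BM alone, against 1993. Leaving out 1 library gave 8 to 17 of the 100 called, 1 to 3 higher in MB that rose, 1 to 2 that fell, 5 to 12 higher in BM that fell, and 1109 to 2297 of all genes. The lowest counts of the 100 came without MB replicate 2 or 3 at 5 DAP. All-gene counts were 1109 to 1220 without BM replicate 1 or 3 or MB replicate 2 or 3 at 5 DAP.

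At 13 against 5 DAP a log2 fold change of at least 1 left 19 higher in MB that rose and 2 that fell. It left 1 higher in BM that rose and 29 that fell. Over all genes 2553 rose and 4101 fell, 6654 of the 23141 tested. Of 33 genes higher in BM tested in MB libraries alone 4 rose and 20 fell, and of 46 tested in BM libraries alone 1 rose. Set against 9 DAP 37 of the 84 tested were called, with 0 higher in MB that fell, 4 higher in BM that rose and 5 that fell. Of these 84 genes 34 were higher in BM. Over all genes 5819 of 21451 were called. In endosperm a log2 fold change of at least 1 left 50 of the 100, 7 higher in MB that rose and 11 that fell. It left 20 higher in BM that rose and 12 that fell. Over all genes 5168 rose and 6054 fell, 11222 of the 23153 tested. BM libraries alone gave 11 higher in MB that rose, and library totals gave 10. Over all genes 7815 of 21585 and 6274 of 23153 rose in these fits. In laser against hand-dissected embryos a log2 fold change of at least 1 left 10 higher in MB that rose and 11 that fell. It left 15 higher in BM that rose and 12 that fell. Over all genes 5654 rose and 7107 fell of the 22660 tested. Library totals gave 10 higher in MB that rose and 29 that fell. MB libraries alone gave 8 higher in BM that fell, of 35 tested, where 8177 of 21564 genes fell. Leaving out 1 library kept 73 to 78, 75 to 82 and 60 to 67 of the 100 called in these 3 comparisons. Over all genes 14210 to 15148, 18394 to 19020 and 17086 to 17725 were called in those fits, with 23206 to 23889 tested.

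Reversed log2 fold changes were, against 9 DAP, 0.48 for GRMZM2G065230, 0.52 for GRMZM5G871471, 0.09 for GRMZM2G414727, 0.94 for GRMZM2G010909, 0.08 for GRMZM2G097929 and 0.3 for GRMZM2G005552. Against 7 DAP they were 0.29 for GRMZM5G871471, 1.07 for GRMZM2G010909 (adjusted p = 0.0033), -0.14 for GRMZM2G137724 and 0.0 for GRMZM2G441347. DESeq2 gave -0.01 for GRMZM5G871471 in endosperm. Library totals gave -0.18 for GRMZM2G165998, -0.11 for GRMZM5G852329 and -0.04 for AC215690.3_FG002 in endosperm, and -0.1 for GRMZM2G004932 and -0.45 for GRMZM2G177812 (adjusted p = 0.0033) in laser embryos. Apart from the differing ages and scalings, the cause was not tested. Of 1743 values under alternatives for 85 gene results, 1613 kept direction and call, 114 lost the call and 16 reversed.

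Same-numbered replicates did not deviate together in every pair, with correlations of deviations from -0.198 to 0.296, -0.36 to -0.009, 0.01 to 0.129 and -0.079 to 0.102 in the 4 comparisons. With the replicate number as a block 15 of 89 genes tested were called in the laser age comparison. Called in the embryo age, endosperm and collection comparisons were 75, 76 and 64 of 97 tested. Over all genes 1606 of 20168, 14105 of 23141, 18240 of 23153 and 17052 of 22660 were called in these 4 fits. Of the 85 gene results 3 lost the call. Small counts limit precision: 6 of the 100 had fewer than 100 reads in their lower cross.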

Other observations

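The marker lists not described above were measured in the same libraries, and none of their gene models is among the 100 genes. Summed CPM of 5 matched gene models listed as imprinted in maize endosperm (fie1, fie2, mez1, nrp1 and meg1, the last also a transfer-layer marker) averaged 419 in MB and 694 in BM endosperm. In 5 DAP hand-dissected embryos that sum averaged 221 in MB and 474 in BM, and in 5 DAP laser embryos it averaged 96.1 in MB and 102 in BM. Summed CPM of 8 storage gene models averaged 707 in MB and 1275 in BM endosperm, and 303 in MB and 1195 in BM embryos of 13 DAP. The 5 matched aleurone gene models summed to 472 CPM in MB and 420.4 CPM in BM endosperm. The 14 matched heat shock gene models summed to 3072 CPM in MB and 2139 CPM in BM laser embryos of 3 DAP. In laser embryos of 5 DAP the order was opposite, with 1200 CPM in MB and 1813 CPM in BM. Hand-dissected embryos of 5 DAP had 4184 CPM in MB and 4431 CPM in BM. Of the clock list 1 of 8 symbols was matched, with 47.4 CPM in MB and 46.2 CPM in BM hand-dissected embryos of 5 DAP. The gene model with the highest mean level per length among the 100, GRMZM2G134256, averaged 231 FPKM over the 48 libraries, and its MB libraries lay above its BM libraries in 7 of the 8 kinds. It was named after its values were seen.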
